A study of Homo sapiens with 8 samples.

Results

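The genes described here are 39 genes listed under hereditary nephrotic syndrome and focal segmental glomerulosclerosis (FSGS). The list takes genes of inherited podocyte disease and leaves aside matrix, integrin, channel and transcription factor genes. The 39 genes were taken by symbol from a gene-level table of 29004 loci, where each of the 39 symbols stood at 1 locus. The RNA came from AB8/13 cells, human podocytes that were immortalized and grow at 33 °C on plastic. They carry LATS2 WT stably behind a doxycycline-inducible promoter. Of the 8 samples, the 4 called LATS2 OE received 125 ng/mL doxycycline for 8 h and the 4 called untreated received none, so the drug and the transgene cannot be told apart. All 8 come from the same line, and the labels do not say whether they were separate cultures. The study asked which genes are transcribed differently once the Hippo kinase is raised. The table holds 1 pooled FPKM value per group (fragments per kilobase of exon, scaled to the mapped fragments, thus a level per length). It gives no value of a single sample, so no SD and no test across samples can be given, and every difference below is a description of 2 pooled values with no replicate check. Read depths per sample were not analysed here.

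Podocytes wrap the glomerular capillaries with foot processes. Neighbouring foot processes are joined by the slit diaphragm, whose adhesion molecules are anchored to a contractile actin cytoskeleton, and inherited podocyte disease mostly hits this junction, its actin regulators, or basic functions on which the cell depends, such as coenzyme Q synthesis, the nuclear pore and tRNA modification. LATS2 is the kinase of the Hippo pathway that phosphorylates YAP and thereby keeps this transcriptional co-activator of TEAD factors out of the nucleus.

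Many values of 1 FPKM or more were deposited without their decimal point, which leaves the level open by a power of 10. For each locus the point was placed so that the group values came closest together. A ratio read in this way is right only where the groups differed by less than 3.16-fold. Among 4295 loci whose values kept their point and reached 0.1 FPKM in both groups, 0.559% differed by more than that. Values below 1 FPKM always kept their point, so low loci weigh in this share. It is no error rate for genes of 1 FPKM or more. NPHS1, KIRREL2, PTPRO, KANK4, CUBN, AVIL and PLCE1 kept the point in both values. For the other 32 genes the ratio rests on this placement. In OSGEP and NUP93 only 1 of the 2 values lost its point.

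The deposited digits do not settle the check of the targeted gene. For LATS2 they allow a level 2.01-fold or 20.1-fold higher in LATS2 OE cells, or 0.201 times the untreated level, among other readings, so the table was not used to check the labels. The digits of the YAP targets CTGF, ANKRD1 and AMOTL2 are open in direction as well. The placement used here reads them 1.98-, 2.25- and 3.06-fold higher in LATS2 OE cells, and the same digits allow 0.198, 0.225 and 0.306 times the untreated level. A placement made from the fold changes that the authors deposited gave other ratios for LATS2 and for these targets. The readings of the placement used here were therefore not taken as results for them. CYR61, a YAP target whose untreated value of 1181 FPKM kept its point, was lower in LATS2 OE cells in every reading, with at most 462 FPKM (0.391 times). Of 11 podocyte markers, 5 (SYNPO, PODXL, NPNT, PLA2R1 and CD2AP) reached 1 FPKM in both groups and 5 lay below 0.1 FPKM in both. WT1, a transcription factor that marks podocytes, had 0.413 and 0.412 FPKM, and NPHS1 and PTPRO were among the 5 low ones. All 5 endothelial markers lay below 0.1 FPKM in both groups, as did 5 of 6 tubular, 2 of 4 leukocyte and 1 of 4 mesangial and stromal markers. AQP1, CD68, PDGFRB and ACTA2 of these lists reached 1 FPKM in both groups. The line thus held only part of the podocyte marker set.

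Among the inherited disease genes 1 gene stood past the limit set here in each direction, and the shares were not read as particular to these genes. Of the 39 genes, 34 reached 0.1 FPKM in at least 1 group. Of these 34, 1 was at least 25% higher in LATS2 OE cells (AVIL) and 1 was at most 0.8 times the untreated level (DLC1). Among all 17156 loci that passed the same filter, 11% were at least 25% higher and 9.09% at most 0.8 times as high. These limits are used throughout and are called the fold limit. At a limit of 1.5-fold, 0 genes were higher and 1 lower, beside 4.74% and 4.21% of loci, and at 1.2-fold 2 were higher and 2 lower, beside 13.4% and 11.3%. With no filter on low values, 4 of the 39 genes were past the fold limit upwards and 2 downwards, beside 15.8% and 12.1% of 20636 loci. Loci that reached 1 FPKM in both groups are called expressed loci below. Of the 32 expressed disease genes, 0 were past the fold limit upwards and 1 downwards, beside 4.43% and 4.98% of 12218 expressed loci. The ratio lay within 1.1-fold for 21 of the 32 genes (65.6%) and for 71.2% of the expressed loci. The median log2 ratio of the 34 genes was -0.02 and that of the 17156 loci 0.0022. RNA was taken from whole cultures, so fewer cells that express a gene and less RNA per cell cannot be told apart.

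**Figure D1:**
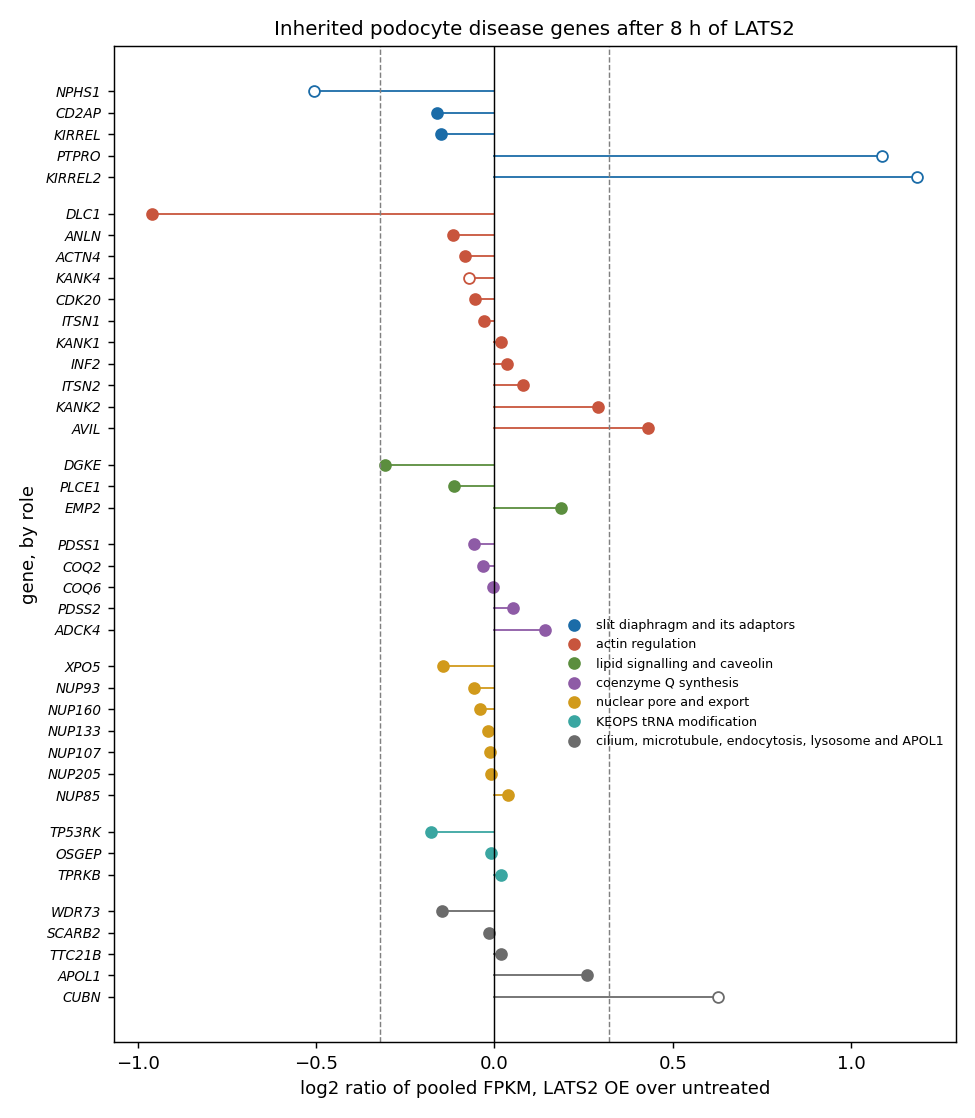
Each point is the log2 ratio of pooled FPKM (LATS2 OE over untreated, 1 value per group) of 1 of the 39 genes, grouped and coloured by role. Open points are genes below 0.1 FPKM in both groups, and dashed lines mark the fold limit. Among filled points DLC1 at -0.96 and AVIL at 0.43 lie outside the dashed lines.

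**Figure D2:**
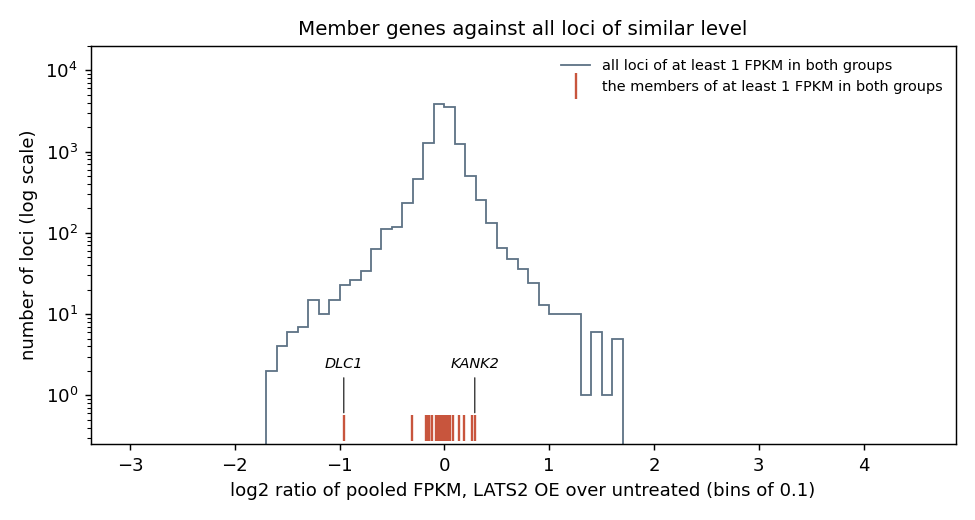
The line shows how many of the 12218 expressed loci fall in each bin of the log2 ratio of pooled FPKM (number on a log scale). Red ticks are the 32 expressed disease genes, which lie between -0.96 (DLC1) and 0.29 (KANK2). The sharp ends of the line are set by the placement of the decimal point, which allows no ratio beyond 3.16-fold where both values lost it.

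DLC1 was the gene of the set that differed most among the expressed ones. DLC1 encodes a GTPase-activating protein that loosens actin stress fibres and focal adhesions. In LATS2 OE cells it stood at 0.514 times the untreated level, a log2 ratio of -0.96. The digits of the table read 39.7 FPKM in untreated and 20.4 FPKM in LATS2 OE cells, but the place of the decimal point was lost from both cells, so that 3.97 and 2.04 FPKM or 397 and 204 FPKM are possible as well. The ratio is the same in these 3 readings. If the groups in truth differed by over 3.16-fold, the digits would also allow a level 5.14-fold higher in LATS2 OE cells. Of the 12218 expressed loci, 67 (0.548%) had a lower log2 ratio than DLC1 under the same placement. The DLC1 locus lies on chromosome 8 of hg19 from 12940869 to 13372429, on the minus strand. Its closest relatives, which encode proteins of the same domain build, did not share a direction. STARD13 stood at 0.673 times the untreated level and STARD8 at 1.46 times. These relatives are named after their values were seen.

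The other actin regulators of the set split into genes close to 0 and a pair above it. KANK2, a talin-binding adaptor at the rim of focal adhesions, stood at 1.22 times the untreated level, a log2 ratio of 0.29. Its digits read 17.7 and 21.6 FPKM, again open by a power of 10 either way. Of the expressed loci, 5.27% had a higher ratio than KANK2. KANK1 stood at 1.01 times the untreated level and the relative KANK3, which is not among the disease genes here, at 0.985 times, with 0.560 and 0.552 FPKM. KANK4 was barely listed, with 0.000951 FPKM in untreated and 0.000905 FPKM in LATS2 OE cells. AVIL, which encodes the actin-binding protein advillin, had 0.165 FPKM in untreated and 0.222 FPKM in LATS2 OE cells, 1.35-fold more, with both values settled. Among loci of that level (at least 0.1 FPKM in 1 group but below 1 FPKM in at least 1), 27.1% were at least 25% higher. AVIL shares its locus coordinates with TSFM on the opposite strand, which had a log2 ratio of -0.08. The level of TSFM was far above that of AVIL, at the lowest reading 4.52 FPKM in untreated and 4.27 FPKM in LATS2 OE cells. The library kit as named does not mark strand, so reads of such a pair cannot be told apart where they overlap. How much of the AVIL value came from TSFM reads was not tested.

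The structural and scaffold genes of this group differed less. ACTN4, the actin crosslinker alpha-actinin 4, stood at 0.945 times the untreated level, and INF2, a formin that builds and severs actin filaments, at 1.03 times. ANLN, the actin-binding scaffold anillin of dividing cells, stood at 0.923 times, and its locus coordinates are shared with KIAA0895. ITSN1 and ITSN2, scaffolds with exchange activity for CDC42, stood at 0.980 and 1.06 times. CDK20, a cyclin-dependent kinase, stood at 0.964 times. Of the 10 actin regulators that passed the filter, 6 had a log2 ratio within 0.1 of 0, as had 49% of all loci that passed it.

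**Figure D3:**
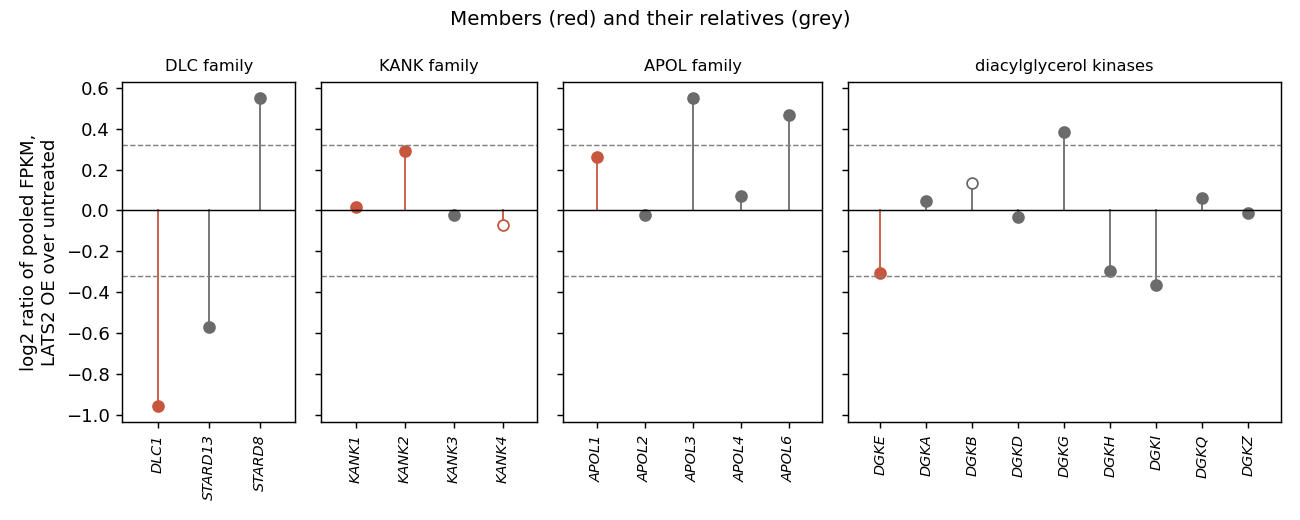
Points give the log2 ratio of pooled FPKM (LATS2 OE over untreated) of disease genes (red) and their relatives (grey) in 4 gene families. Open points are below 0.1 FPKM in both groups and dashed lines mark the fold limit. DLC1 and STARD13 lie below 0 and STARD8 at 0.55 above it, and APOL3 and APOL6 lie above APOL1.

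The slit diaphragm genes divided into a nearly silent and an expressed part. NPHS1, which encodes nephrin, the main adhesion molecule of the slit diaphragm, had 0.00875 FPKM in untreated and 0.00616 FPKM in LATS2 OE cells. KIRREL2, a nephrin relative whose gene neighbours NPHS1 head to head on chromosome 19, had 0.00187 and 0.00425 FPKM. PTPRO, a receptor tyrosine phosphatase of the podocyte surface, had 0.00324 and 0.00689 FPKM. The log2 ratios of these 3 genes, -0.51, 1.19 and 1.09, rest on values below 0.01 FPKM. Among loci below 0.1 FPKM and above 0 in both groups, 39.8% were past the fold limit upwards and 26.8% downwards, so ratios of this size are common at this level. By contrast KIRREL, which encodes the nephrin partner NEPH1, and CD2AP, the adaptor that ties nephrin to actin, reached 1 FPKM in both groups. They stood at 0.902 and 0.894 times the untreated level. In a list of 13 other genes of the slit diaphragm complex, 14 loci passed the filter. Of these 14, 0 were past the fold limit, beside 11% upwards and 9.09% downwards of all loci that passed the filter. The log2 ratios of the 14 ran from -0.24 (FAT1) to 0.29 (PODXL).

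**Figure D4:**
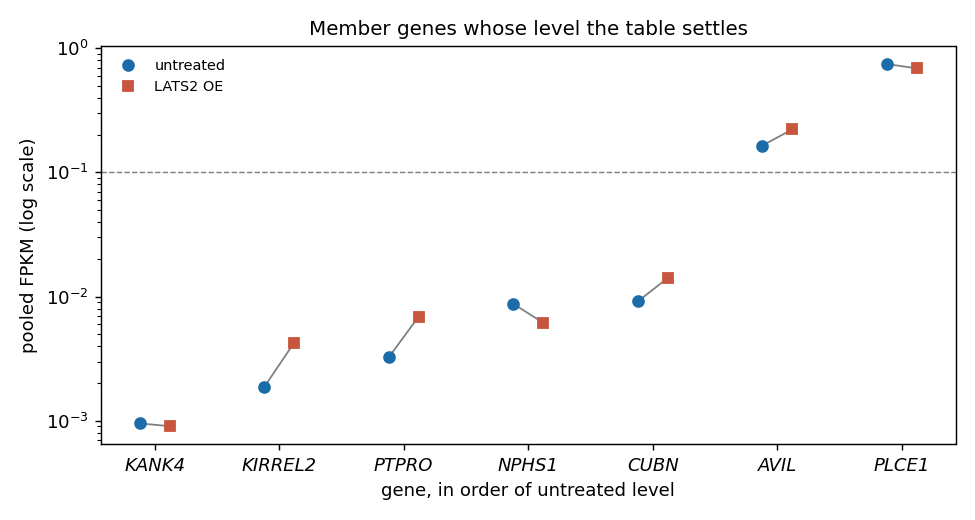
Pooled FPKM (log scale) of the 7 disease genes whose values both kept their decimal point, untreated (circles) and LATS2 OE (squares), 1 pooled value per group. KANK4, KIRREL2, PTPRO, NPHS1 and CUBN lie below 0.1 FPKM (dashed line) in both groups, and AVIL and PLCE1 lie between 0.1 and 1 FPKM.

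Of the 3 lipid signalling genes, 0 were past the fold limit. DGKE, the diacylglycerol kinase epsilon that removes the second messenger diacylglycerol, stood at 0.809 times the untreated level, a log2 ratio of -0.31. Its digits read 25.1 FPKM in untreated and 20.3 FPKM in LATS2 OE cells, or 2.51 and 2.03 FPKM. It lay just inside the fold limit, as did KANK2 and APOL1 on the higher side, while AVIL and DLC1 lay outside it. Of 8 other diacylglycerol kinase genes, 7 passed the filter. DGKI was past the fold limit downwards with a log2 ratio of -0.37 and DGKG upwards with 0.39, and DGKH had -0.30, close to DGKE. Of all loci that passed the filter, 9.09% were past the limit downwards and 11% upwards. PLCE1, a phospholipase C that makes diacylglycerol, had 0.747 and 0.690 FPKM and stood at 0.924 times the untreated level. EMP2, a tetraspan membrane protein that regulates caveolin, stood at 1.14 times.

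Of the 5 coenzyme Q genes, 0 were past the fold limit. Coenzyme Q carries electrons in the mitochondrial respiratory chain, and these genes serve its synthesis. PDSS1 and PDSS2, the subunits of the enzyme that makes its isoprenoid tail, stood at 0.961 and 1.04 times the untreated level, COQ2, which joins tail and ring, at 0.977 times, and COQ6, a ring hydroxylase, at 0.998 times. ADCK4, an atypical kinase of the complex, stood at 1.1 times, but its locus also carries the name NUMBL. The COQ6 locus is 11.1 times as long as the annotated gene and the PDSS1 locus 3.33 times. The rows of COQ6 and PDSS1 also share their coordinates with other rows. In a list of 9 other coenzyme Q genes all passed the filter, 0 were past the fold limit, and 8 had a log2 ratio within 0.1 of 0. Among the expressed loci, 61.1% lay within 0.1 of 0. Past the fold limit were 4.43% of them upwards and 4.98% downwards, so a count of 0 in a short list is common.

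Of the 7 nuclear pore and export genes, 0 were past the fold limit. NUP85, NUP107, NUP133 and NUP160 encode parts of the Y-shaped scaffold complex of the pore, and NUP93 and NUP205 parts of its inner ring. Their ratios to untreated ran from 0.961 for NUP93, with 37.4 and 35.9 FPKM, to 1.03 for NUP85. XPO5, an export receptor for small RNA precursors, stood at 0.905 times, and its row shares its coordinates with 8 other rows of the table. With XPO5, 6 of 7 genes of this group had a log2 ratio below 0, as had 51.5% of the expressed loci. In a list of 23 other nucleoporins, 19 had a log2 ratio below 0 as well, with a median of -0.06 beside -0.0041 for the expressed loci. Of the 23, 0 were past the fold limit, beside 4.43% upwards and 4.98% downwards of the expressed loci. The lowest was NUP35 at -0.26.

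The KEOPS complex adds a modification that tRNAs need for accurate decoding. Its catalytic subunit gene OSGEP had 22.3 FPKM in untreated and 22.1 FPKM in LATS2 OE cells, with the point of the first value placed as above. TPRKB stood at 1.01 times the untreated level. TP53RK, the kinase subunit, stood at 0.885 times, but its locus is named together with SLC13A3 and is 25.9 times as long as the annotated TP53RK gene.

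Promoter sequence was looked at because YAP acts through TEAD factors. Promoters of 34 of the 39 genes were found in RefSeq (GRCh38.p14, from 250 bases before to 50 after the start), and DLC1, APOL1, KIRREL, KIRREL2 and WDR73 had no entry. The letters GGAATG, the core of TEAD sites, were searched on both strands and found in 2 of the 34 (5.88%), beside 14% of 35116 promoters of that length. An interferon response motif (GAAA, any 2 bases, then GAAA, on both strands) stood in 1 of the 34 (2.94%), beside 3.57% of all. The 3 windows are printed 5′ to 3′ on the strand of the gene, with the matched letters in capitals. The COQ2 and PDSS2 matches lie from 8 to 3 and from 6 to 1 bases before the start, that of PDSS2 on the other strand, and the NUP160 match from 89 to 80 bases before it.
COQ2 (chr4:83284777-83284830, minus strand): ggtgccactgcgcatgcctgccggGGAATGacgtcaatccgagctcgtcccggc
PDSS2 (chr6:107459541-107459594, minus strand): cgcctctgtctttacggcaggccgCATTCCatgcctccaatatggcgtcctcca
NUP160 (chr11:47848600-47848657, minus strand): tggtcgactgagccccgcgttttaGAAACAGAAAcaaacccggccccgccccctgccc
The log2 ratios of these 3 genes were -0.03, 0.05 and -0.04. The promoters of KANK2, DGKE and AVIL held neither run of letters, which says only that these letters are not in those windows. A match is a description of letters and not a binding site.

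The remaining genes have separate roles. APOL1, a secreted and membrane-bound lipoprotein component that is induced by interferon and whose risk alleles predispose to FSGS, stood at 1.2 times the untreated level, a log2 ratio of 0.26. Its digits read 10.5 and 12.6 FPKM, open by a power of 10 either way. Its neighbours on chromosome 22 were unequal. APOL3 had 0.729 and 1.07 FPKM, a log2 ratio of 0.55, and APOL6 had a log2 ratio of 0.47. APOL2 and APOL4 had -0.02 and 0.07, and APOL5 was listed at 0 in both groups. SCARB2, a lysosomal membrane protein, and TTC21B, a transport protein of the primary cilium, stood at 0.989 and 1.01 times the untreated level. WDR73, a protein linked to microtubules, stood at 0.903 times. CUBN, the endocytic receptor cubilin of proximal tubule and podocyte, had 0.00913 and 0.0141 FPKM and was thus nearly silent.

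Inherited podocyte disease genes outside the 39 (matrix, integrin, transcription factor, channel and other genes) gave a like picture. Of 36 listed symbols, 35 were in the table and 29 loci passed the filter. Of these, 1 was past the fold limit upwards and 1 downwards, beside 11% and 9.09% of all loci that passed the filter. ARHGAP24, a Rac-directed GTPase-activating protein, was the higher one, with 0.356 and 0.529 FPKM. DAAM2, a formin, was the lower one, with 0.351 and 0.171 FPKM, a log2 ratio of -1.03. Both lay below 1 FPKM. Among loci of at least 0.1 FPKM in 1 group but below 1 FPKM in at least 1, 27.1% were past the limit upwards and 19.3% downwards. The median log2 ratio of the 29 was -0.03, and 23 of the 35 loci reached 1 FPKM in both groups. ARHGAP24 and DAAM2 were named after their values were seen, as were the APOL and diacylglycerol kinase relatives above.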

How the data were processed

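Poly(A) RNA of 8 samples (4 untreated, 4 LATS2 OE) was sequenced as single reads. Per the submitters' notes and the study's methods, reads were trimmed with Trimmomatic (version 0.33) and aligned to hg19 with TopHat, and the authors deposited 1 table of pooled FPKM values, 1 per group, from the Cufflinks package. For TopHat, Cufflinks and the annotation, no version was found. The table also holds the authors' log2 fold changes, test statistics, p-values and q-values. No value of these is printed or enters a ratio here, but the fold changes had been seen, and a placement made from them had been compared, when LATS2 and the YAP targets were written as open. For the 39 genes that placement gave the same ratios, but for LATS2, CTGF, ANKRD1 and AMOTL2 it did not.

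In FPKM cells of at least 1 with 3 or more decimals the point was lost. It was placed so that both groups came closest together. The step was also run on simulated data, which cannot show whether the groups of this study differed by less than 3.16-fold at a given locus. Log2 ratios were computed without a pseudocount for loci above 0 in both groups and of at least 0.1 FPKM in 1, taking the lowest level the digits allow (Python 3.11.15, NumPy 2.4.6). No test was made. Loci were set beside GENCODE 44 lifted to GRCh37. Of the 39 genes, 9 share their coordinates with other rows and 2 loci carry several names. All 39 are named, in full where past the fold limit or at either end of a role group. The genes and lists were chosen with earlier results of these data known, among them that decimal points were lost. Some items are not reported here.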

Additional observations from a re-analysis of the deposited data

How the results depend on the processing

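No paired analysis was possible because the table holds 1 pooled value per group, and no replicate could be left out for the same reason. DLC1 was past the limit downwards under every alternative run, and the median log2 ratio of the genes lay between -0.02 and -0.01. None of these runs moved the decimal point of DLC1 in 1 group alone, so its reading of 5.14-fold higher was not tested. The count of genes at least 25% higher, 1 (AVIL), became 0 with a pseudocount of 0.1 FPKM (AVIL at 0.28), 0 at 1.5-fold and 0 among expressed genes (1 FPKM or more in each group). It became 4 without a filter, when CUBN, PTPRO and KIRREL2 entered, and the count of lower genes then became 2 with NPHS1. At 1.2-fold, a limit chosen after seeing the data, 2 genes were higher (AVIL and KANK2) and 2 lower (DLC1 and DGKE). With the same number of digits before the point in both groups, 2 were higher, since ANLN (10.8 and 9.95 FPKM or 10 times these) then reads a log2 ratio of 3.21. Leaving out loci with several names, or loci over 2 times as long as the annotated gene (5 genes, an alternative added after seeing the data), or centring on the median of all loci kept both counts at 1. Values below 0.1 FPKM limit what can be said of NPHS1, KIRREL2, PTPRO, KANK4 and CUBN.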
